A study of Mus musculus with 7 samples.

Results

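The genes described here are 10 genes of lipoprotein metabolism and triglyceride secretion, Apoa1, Apoa2, Apoa4, Apoa5, Apob, Apoc1, Apoc3, Apoe, Mttp and Lpl, measured in livers of fasted WT and SHIVA mice. They were chosen by name: every probe on the array that was not a control and whose gene name in the scanner output was 1 of the 10. This gave 14 probes of 55681, and 10 genes of 36492 gene names. The WT mice were C57BL/6. The SHIVA mice carry a Sox17 mutation induced with ENU that changes a residue in the HMG domain, the part of the Sox17 protein that binds DNA, and were kept on C57BL/6 by backcrossing SHIVA males to C57BL/6 females. All viable SHIVA mice were heterozygous, and the mutation is present in every cell of the mouse. All mice of both genotypes were female, 8 to 12 weeks old and fasted for 24 h before the liver was taken, so that no fed liver is part of the comparison. There were 3 WT and 4 SHIVA mice, each with an array of its own. The question put to these arrays was whether liver transcripts that serve lipid handling in fasting differed between WT and SHIVA mice.

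Liver sends triglycerides into the blood as very low density lipoprotein (VLDL), a particle built around 1 molecule of apolipoprotein B that is loaded with lipid by the microsomal triglyceride transfer protein Mttp. In the blood, smaller apolipoproteins sit on the particle surface and speed or slow the removal of its triglycerides by lipoprotein lipase (Lpl), an enzyme that acts at the capillary wall of fat, heart and muscle, is also made by macrophages and is scarce in healthy adult hepatocytes. High density lipoprotein (HDL) is built on Apoa1 and Apoa2, which the liver secretes too. In fasting, fatty acids freed from fat tissue reach the liver, where the nuclear receptor PPARα drives genes that burn them or pass them on.

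The probes on which the account below turns most are 4 probes of 60 bases, printed as the files hold them, 5′ to 3′ and in the sense of the transcript; no letter is capitalised because no base is singled out. The Lpl probe shown is the one nearer to the 5′ end of the transcript, the Apoa4 probe is the single one for that gene, and the 2 Apob probes are shown because they lie far apart on one long transcript and 1 of them gave an unusual value in 1 mouse.
Lpl, A_52_P257812: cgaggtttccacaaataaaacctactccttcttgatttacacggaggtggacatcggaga
Apoa4, A_51_P327491: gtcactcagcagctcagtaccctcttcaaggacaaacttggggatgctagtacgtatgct
Apob, A_55_P1957198: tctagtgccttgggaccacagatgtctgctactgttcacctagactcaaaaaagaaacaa
Apob, A_52_P441070: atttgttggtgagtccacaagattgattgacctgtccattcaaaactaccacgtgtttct

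The files place these probes on the mm9 build. The Lpl probe lies at chr8:71425050-71425109 on the plus strand and starts at base 1340 of its transcript. The other Lpl probe, which had the higher mean signal and stood for the gene, lies at chr8:71430267-71430326 and starts at base 3484. The Apoa4 probe reaches from chr9:46049661 to chr9:46050404, which is 744 bases of genome for 60 bases of probe, so that it crosses at least 1 splice junction. The Apob probes lie at chr12:8012697-8012756 and chr12:8023194-8023253, on the plus strand, and start at bases 4473 and 13457 of the transcript. Exon and UTR boundaries of mm9 were not used here.

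All 14 probes were well above background on all 7 arrays, and 0 spots were saturated. Over all probes, the share well above background was 44.5% to 46.3% per WT array and 45.8% to 48.7% per SHIVA array. Values are log2 signals after quantile normalization of the 7 arrays, a difference of 1 being a factor of 2 in signal. They compare livers for 1 probe and do not rank genes against each other, since probes differ in brightness. The 7 arrays were on 1 slide with WT and SHIVA in different rows, so that place on the slide and genotype cannot be told apart. Precision is limited by how few arrays there are. Hepatocyte markers were well above background on all 7 arrays for 8 of 8 genes, and 0 were called. Of these, 1 had an unadjusted p under 0.05 (limma), beside 13.2% of all genes tested. That gene was Ttr, a carrier of thyroid hormone. It was lower in each SHIVA liver than in all WT livers (log2 fold change -0.34, limma, adjusted p = 0.343). Serpina1a was higher in each SHIVA liver than in all WT livers (log2 fold change 0.09, limma, adjusted p = 0.808). Such a lack of overlap held for 12.2% of all genes tested. The fitted value was above 0 for 6 of the 8 hepatocyte markers and below 0 for 2, with a median of 0.06. The summed signal of this list compares nothing between genotypes, since Alb and Serpina1a, so bright that quantile normalization nearly fixes their values, make up most of it. Sox17 itself gave a low log2 signal of 3.94 ± 0.55 (SD, n = 3) in WT livers, well above background on 2 of 3 arrays, and 4.64 ± 0.12 (SD, n = 4) in SHIVA livers, above it on all 4. Sox17 was not called (log2 fold change 0.70, limma, adjusted p = 0.270), and this probe does not check the genotype, since the mutation alters the protein sequence.

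Of the 10 genes, only Lpl passed the test of SHIVA against WT, which asked for an adjusted p under 0.05 (limma with Benjamini-Hochberg adjustment over all 20002 genes tested), and it was higher in SHIVA livers. Over all genes tested 0.375% passed this threshold, 0.185% higher and 0.19% lower in SHIVA livers. None of the apolipoprotein genes passed, nor did Mttp: 0 of 10 genes were called lower. At an unadjusted p under 0.05 there were 2 of the 10, Lpl and Apoa4, beside 13.2% of all genes tested. The methods' t-test called 0 of the 10 after adjustment, with 3 at an unadjusted p under 0.05. In the limma fit the count of all genes called was 75 and moved with single mice. It was 3 without WT 1, 8 without WT 2, 434 without WT 3, 7 without SHIVA 1 and 13 without SHIVA 3.

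The log2 fold changes of SHIVA over WT ran from -1.19 for Apoa4 to 2.12 for Lpl, with a median of -0.20 over the 10 genes and 0.00 over all genes tested. The fitted value was above 0 for 1 of the 10, Lpl, and below 0 for the other 9, of which Apoa2 and Apoe came out marginally above 0 with some single mice left out, and Apoa2 also in replicates 1 to 3 of both genotypes. Over all genes tested, 50% had a value above 0. WT and SHIVA values did not overlap for 3 of the 10, higher in SHIVA for Lpl and lower for Apoa4 and Apoc3. This held for 12.2% of all genes tested, 6.35% higher and 5.81% lower. A log2 fold change of more than 1 in either direction was found for Lpl and Apoa4, and for 2.96% of all genes tested.

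**Figure D1:**
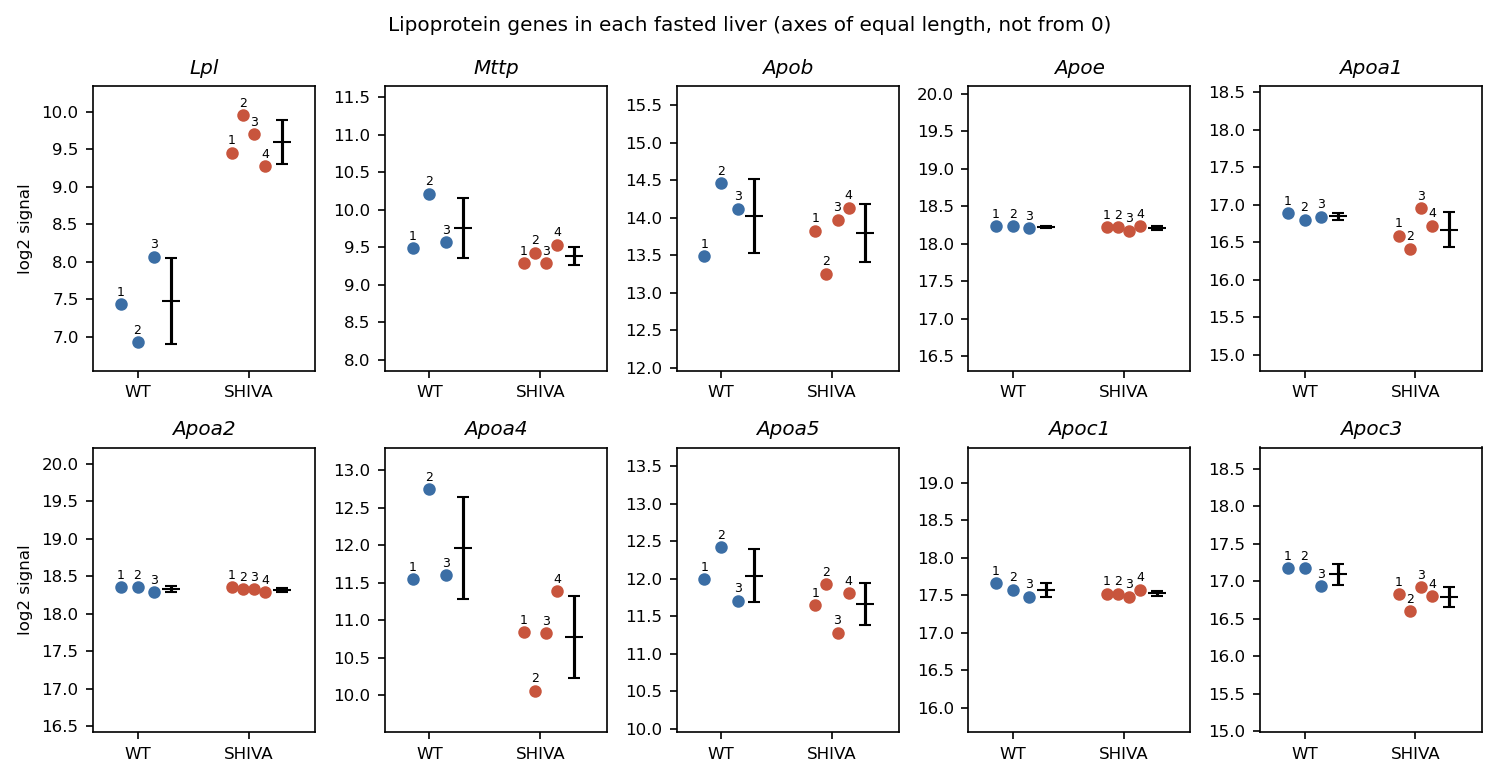
Log2 signal (vertical axis, same span in each panel, not from 0) of the probe standing for each of the 10 genes in 3 WT and 4 SHIVA livers; points are mice with their replicate number, and bars are the mean ± SD. Lpl lies at 6.93 to 8.07 in WT and 9.27 to 9.96 in SHIVA livers, Apoa4 at 11.55 to 12.75 and 10.06 to 11.39, and Apoe, Apoa2 and Apoc1 hardly move between mice.

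Lpl, which splits the triglycerides of circulating lipoproteins, had log2 signals of 7.44, 6.93 and 8.07 in WT 1 to 3 and of 9.46, 9.96, 9.71 and 9.27 in SHIVA 1 to 4. Every SHIVA liver was above every WT liver, with WT 3 the highest of its group and SHIVA 4 the lowest of its own. The means were 7.48 ± 0.57 (SD, n = 3) and 9.60 ± 0.30 (SD, n = 4). Lpl was thus 4.34-fold higher in SHIVA livers (95% confidence interval 2.80 to 6.75), a log2 fold change of 2.12 with standard error 0.28 (limma, adjusted p = 0.0273). An exact permutation of the 7 mice, two-sided, gave p = 0.0286 for Lpl, the smallest p that the 35 splits into 3 and 4 allow.

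The second Lpl probe, the one whose sequence is printed above, showed the same pattern at another place of the transcript. Its log2 signals were 6.34, 6.23 and 7.25 in WT and 8.62, 8.68, 8.85 and 8.56 in SHIVA livers. Again no SHIVA liver came near the WT range, and WT 3 was again the highest WT liver. It gave a log2 fold change of 2.07 (standard error 0.25), with adjusted p = 0.0265 (limma, 26258 probes tested one by one), beside 0.0332 for the first probe. Of all probes tested one by one, 0.229% passed. The 2 probes read the same livers and are not separate evidence for a difference between mice.

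The direction held under each of the 18 other settings tried, with log2 fold changes of Lpl between 1.81 and 2.42, but the call did not: 11 of the 18 kept it, and the adjusted p ranged from 0.00857 to 0.205. It was lost without WT 1 (0.159), without WT 2 (0.117), without SHIVA 1 (0.0770) and without SHIVA 3 (0.0749), and in 3 other settings, among them no filter on dim probes (0.117) and the methods' t-test (0.205).

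**Figure D2:**
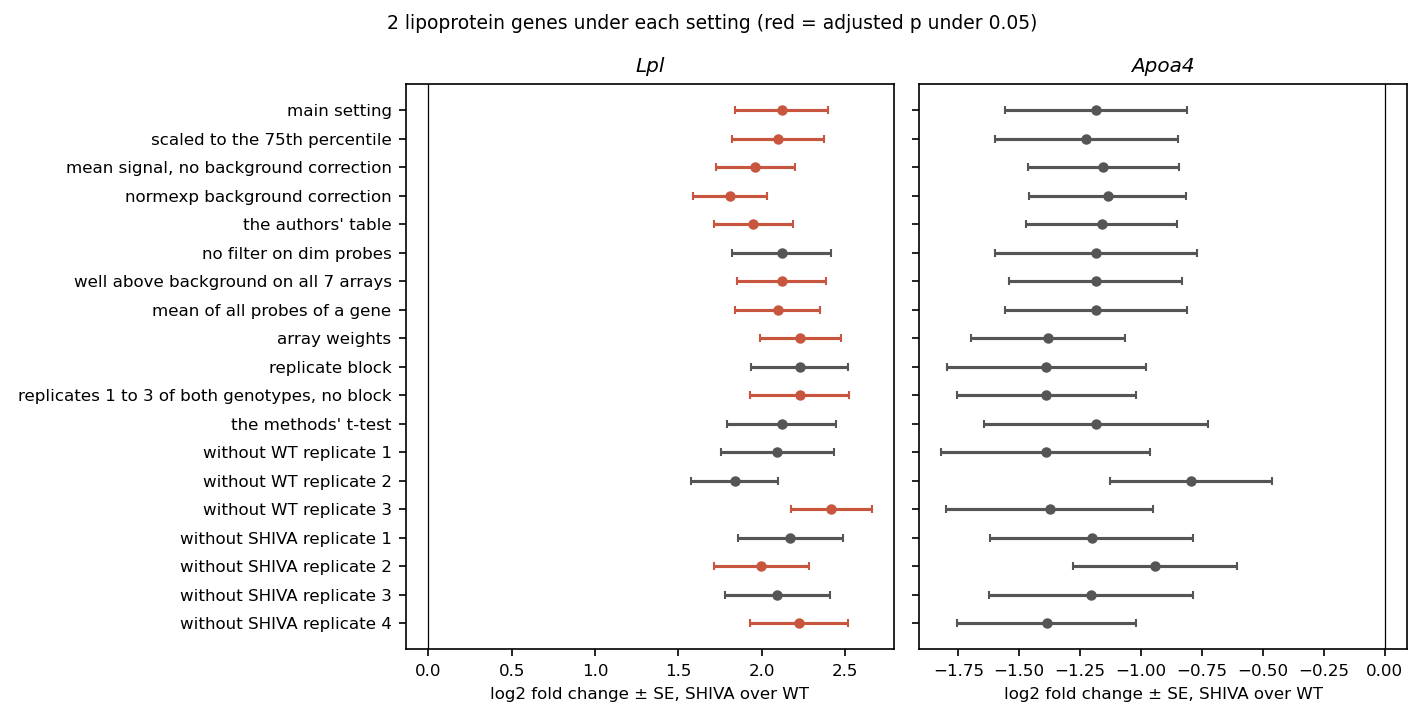
Log2 fold change of SHIVA over WT ± standard error (horizontal axes, of different range) for Lpl and Apoa4 under the main setting and 18 others (vertical axis); red marks an adjusted p under 0.05. Lpl stays between 1.81 and 2.42 and loses its call in 7 of the 18, while Apoa4 stays between -1.39 and -0.80 and is called in 0.

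Since Lpl is made by several cell types, marker genes of the cells that a piece of liver could hold were read beside it. In a whole liver, more cells of a type and more RNA per cell cannot be told apart. Of 9 markers of Kupffer cells and other macrophages, 8 were above background on all 7 arrays and 0 were called. Their summed log2 signal was 14.1 to 15.3 in WT and 14.6 to 15.8 in SHIVA livers, so that the groups overlapped. WT 2 had the lowest sum and the lowest Lpl. SHIVA 2 had the highest sum and the highest signal of the first Lpl probe, while SHIVA 3 was the highest at the second. The sum did not order all mice as Lpl did. WT 3 had a sum of 15.26, above SHIVA 3 (14.96) and SHIVA 4 (14.64). The log2 signal of the first Lpl probe was 8.07 in WT 3, below 9.71 in SHIVA 3 and 9.27 in SHIVA 4. The fitted log2 fold change was above 0, as for Lpl, for 8 of the 9 macrophage markers, beside 50% of all genes tested. The median over the list was 0.36. An unadjusted p under 0.05 (limma) was found for 2 of the 9, beside 13.2% of all genes tested. These 2 went opposite ways, Marco higher and Cd163 lower in SHIVA livers. The highest values were 1.54 for the scavenger receptor gene Marco (limma, adjusted p = 0.324) and 0.78 for the macrophage surface gene Adgre1 (0.391). The single value below 0 was -1.32 for the haemoglobin scavenger receptor gene Cd163 (0.131), without overlap of the groups. Cd163 was also the single marker of the list not above background on all 7 arrays. The part of macrophages in the Lpl difference was not tested.

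Markers of the other main producers of Lpl were mostly below background. Of 7 adipocyte genes, Cfd, Lep, Plin1 and Retn were above background on 0 arrays, and the adipocyte hormone gene Adipoq was so on 1, SHIVA 1. Most of the summed signal of the adipocyte list came from Fabp4. The log2 sum of the list was 8.27 to 9.33 in WT and 9.06 to 9.58 in SHIVA livers. Fabp4, a fatty acid binding protein of adipocytes, macrophages and capillary endothelium, was the single adipocyte gene above background on all 7 arrays, with a log2 fold change of 0.81 (limma, adjusted p = 0.208). Cidec, a lipid droplet protein that fatty hepatocytes make too, was above background on 2 WT arrays and 1 SHIVA array. Its value of -2.79 (limma, adjusted p = 0.278) was opposite to that of Fabp4. Only these 2 adipocyte genes were tested, and both had an unadjusted p under 0.05 (limma), as had 13.2% of all genes tested. Of 6 genes of striated muscle, Acta1, Ckm, Mb, Myh4 and Mylpf were above background on 0 arrays, and Tnnt3 was so on 1 WT array. In the list of 7 endothelial genes 1 was called, beside 0.375% of all genes tested. It was Esm1, a secreted proteoglycan of endothelium, which was higher in SHIVA livers (log2 fold change 3.66, limma, adjusted p = 0.00544). The fitted value was above 0 for 5 of the 7 and below 0 for 2, with a median of 0.15. Esm1 and Sox17 had an unadjusted p under 0.05 (limma), as had 13.2% of all genes tested. The summed log2 signal of that list was 13.2 to 13.3 in WT and 13.0 to 13.3 in SHIVA livers. Most of that sum came from Kdr. Of 6 markers of stellate cells and fibroblasts, 6 were above background on all 7 arrays and 0 were called. Their fitted values were above 0 for 3 and below 0 for 3. Of the 6, 1, Rgs5, had an unadjusted p under 0.05 (limma), beside 13.2% of all genes tested. Rgs5 was higher in each SHIVA liver than in all WT livers (0.69, limma, adjusted p = 0.184). Des was lower in each (-0.22, limma, adjusted p = 0.539).

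**Figure D3:**
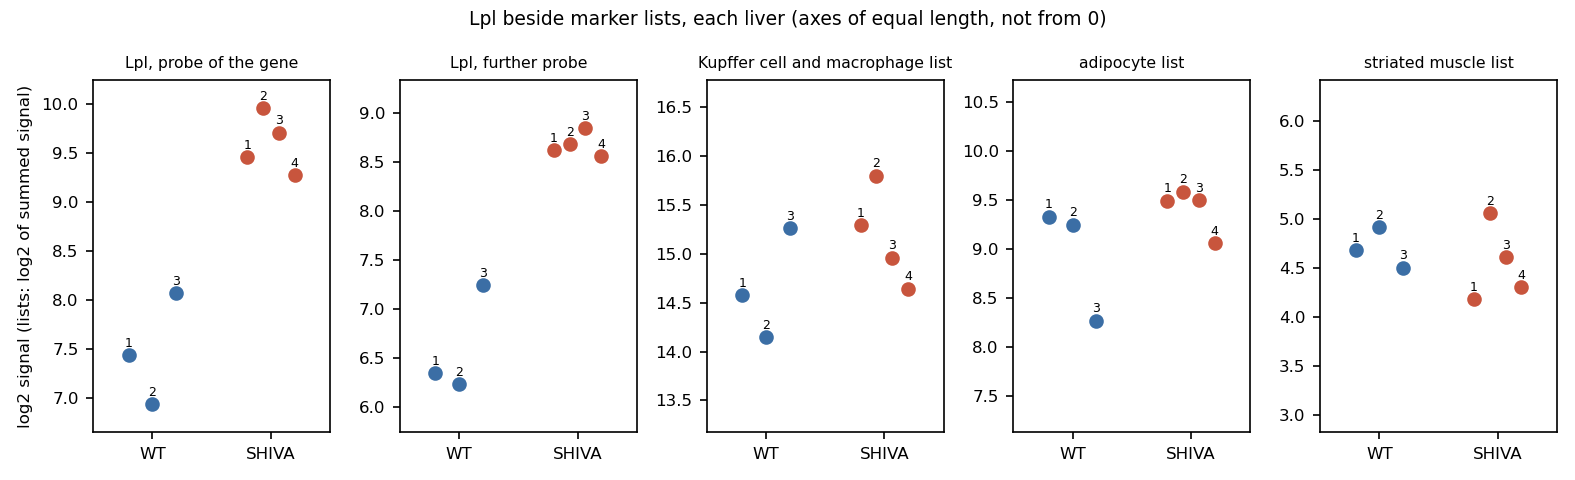
Log2 signal of both Lpl probes and log2 of the summed signal of 3 marker lists (vertical axes of equal span, not from 0) in each WT and SHIVA liver, numbered by replicate. Both Lpl probes separate the genotypes, while the macrophage, adipocyte and striated muscle sums overlap. The striated muscle genes were almost all below background, and most of the adipocyte sum came from Fabp4, so that these 2 sums say little about cell content.

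Apob, the structural protein of VLDL, was read by 2 probes, neither of which passed the test. The probe standing for the gene had log2 signals of 13.49, 14.46 and 14.13 in WT and 13.83, 13.26, 13.98 and 14.14 in SHIVA livers. The SHIVA values lay almost within the WT range, with SHIVA 2 below it. For this probe the log2 fold change was -0.23 (95% confidence interval -0.86 to 0.41; limma, adjusted p = 0.783), so that a fall to 0.549-fold or a rise to 1.33-fold would lie within the interval. It was -0.50 without WT 1 and -0.01 without WT 2. At the other probe, near the 3′ end, the log2 signals were 12.85, 13.10 and 13.27 in WT and 13.10, 11.90, 12.94 and 13.12 in SHIVA livers. SHIVA 2 stood clearly below all other mice there, and the fitted log2 fold change of -0.31 (adjusted p over single probes 0.730) shrank to a difference of -0.02 without it.

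Mttp, which loads triglyceride onto apolipoprotein B in the endoplasmic reticulum, had log2 signals of 9.48, 10.21 and 9.56 in WT and 9.28, 9.43, 9.29 and 9.53 in SHIVA livers. WT 2 was well above the other mice, and only SHIVA 4 reached into the WT range. The log2 fold change of Mttp was -0.37 (95% confidence interval -0.82 to 0.09; limma, adjusted p = 0.476), and -0.14 without WT 2.

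Apoa4, an apolipoprotein that liver and intestine put on triglyceride-rich particles and HDL, had the lowest fitted value of the 10 genes. Its log2 signals were 11.55, 12.75 and 11.60 in WT and 10.84, 10.06, 10.83 and 11.39 in SHIVA livers. No SHIVA liver reached the lowest WT liver, but SHIVA 4 came close to it, and WT 2 was far above the other WT mice. The means were 11.97 ± 0.68 (SD, n = 3) and 10.78 ± 0.55 (SD, n = 4). The fitted ratio was 0.440-fold (95% confidence interval 0.244 to 0.792), a log2 fold change of -1.19 with standard error 0.37, and it did not pass the test (limma, adjusted p = 0.238, unadjusted p = 0.0119). The exact two-sided permutation p was 0.0571, the same as for Apoc3 and Mttp. Without WT 2 the log2 fold change of Apoa4 was -0.80. Of 6 enterocyte markers, Alpi, Cdx2, Lct, Sis and Vil1 were above background on 0 arrays. The other, Cdhr2, was above it on all 7 (log2 fold change 0.05; limma, adjusted p = 0.936).

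Apoc3 and Apoa5 act against each other on the removal of triglycerides from plasma: Apoc3 slows lipolysis and the uptake of remnants, and Apoa5 promotes lipolysis by Lpl. Apoc3 had log2 signals of 17.17, 17.17 and 16.94 in WT and 16.83, 16.60, 16.92 and 16.80 in SHIVA livers. All SHIVA livers were below the WT livers, SHIVA 3 by very little, and with arrays set to a common 75th percentile instead, SHIVA 4 lay above WT 3 and the groups overlapped. The log2 fold change of Apoc3 was -0.31 (95% confidence interval -0.64 to 0.03; limma, adjusted p = 0.417). A second, dimmer Apoc3 probe, which the files assign to another transcript, gave -0.40 (adjusted p over single probes 0.440), with SHIVA 4 inside the WT range.

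Apoa5 had log2 signals of 11.99, 12.42 and 11.71 in WT and 11.64, 11.92, 11.28 and 11.80 in SHIVA livers. The groups overlapped, with SHIVA 3 the lowest of all. Its log2 fold change was -0.38 (95% confidence interval -0.88 to 0.12; limma, adjusted p = 0.515), and it was -0.19 without WT 2 and -0.55 without WT 3.

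Apoa1, the main protein of HDL, had log2 signals of 16.89, 16.80 and 16.84 in WT and 16.59, 16.42, 16.96 and 16.72 in SHIVA livers. After quantile normalization the WT livers were close together (SD 0.05), while SHIVA 3 was the highest and SHIVA 2 the lowest of all. This order moved with the scaling. With arrays set to a common 75th percentile, WT 2 was the highest, SHIVA 2 again the lowest and the WT SD 0.10. The log2 fold change was then -0.21 (limma, adjusted p = 0.656). In the main setting the log2 fold change of Apoa1 was -0.17 (95% confidence interval -0.54 to 0.19; limma, adjusted p = 0.704). It was -0.27 without SHIVA 3 and -0.09 without SHIVA 2. The probe was printed at 10 places on each array, and the SD of the log2 signal over these spots was 0.029 to 0.056 within an array.

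Apoa2, the second protein of HDL, Apoe, the ligand by which remnants are taken up by liver receptors, and Apoc1, which hinders that uptake, gave nearly the same value in every liver after quantile normalization. Log2 signals ran from 18.29 to 18.35 for Apoa2, from 18.18 to 18.23 for Apoe and from 17.48 to 17.66 for Apoc1 over all 7 mice. The log2 fold changes were -0.01, -0.01 and -0.05 (limma, adjusted p = 0.988, 0.978 and 0.911), and the 95% confidence interval for Apoe was -0.29 to 0.27. These probes were among the brightest of the array, at ranks 1 to 3 for Apoa2, 5 to 8 for Apoe and 23 to 33 for Apoc1, where quantile normalization leaves little room to differ. Scaled to the 75th percentile of each array, which sets no value by rank, the log2 fold changes were -0.19 for Apoa2 (95% confidence interval -0.53 to 0.16), -0.14 for Apoe (-0.47 to 0.18) and -0.14 for Apoc1 (-0.49 to 0.21), and 0 of these 3 passed (limma). The second Apoa2 probe gave -0.09 (limma, adjusted p over single probes 0.825).

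**Figure D4:**
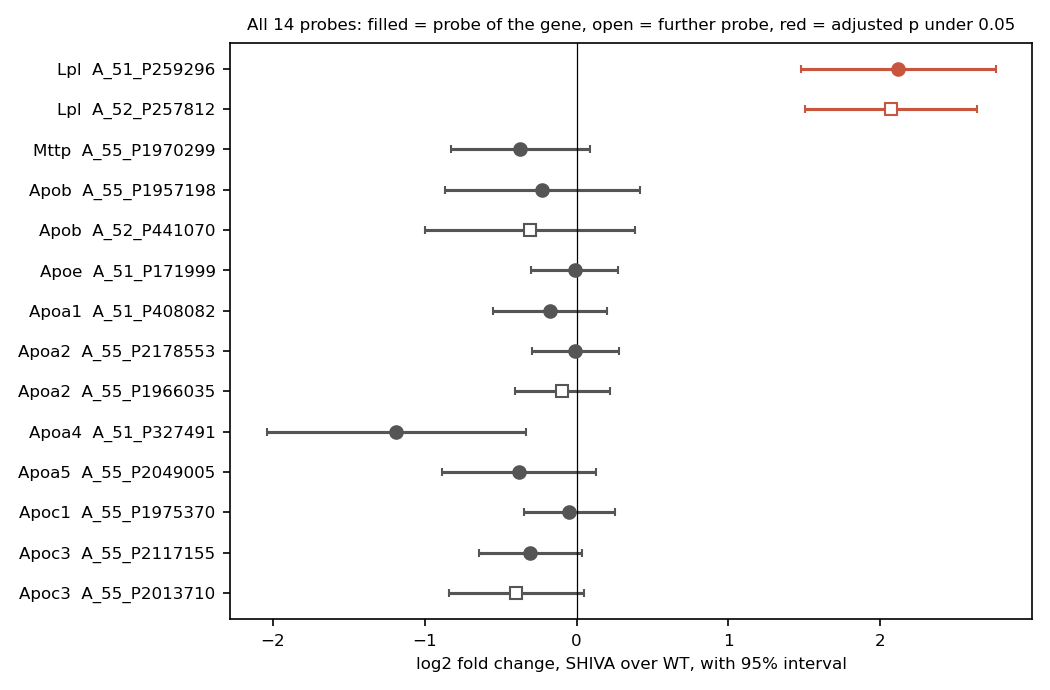
Log2 fold change of SHIVA over WT with its 95% confidence interval (horizontal axis) for each of the 14 probes of the 10 genes (vertical axis); filled points are the probe that stands for the gene, open squares a further probe, and red an adjusted p under 0.05. Both Lpl probes lie near 2, the Apoa4 interval ends below 0 although its adjusted p did not pass, and the other 11 intervals hold 0.

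Several of the genes are neighbours. The probes of Apoa1, Apoc3, Apoa4 and Apoa5 lie within 42.1 kb of chromosome 9, from 46037921 to 46080002 of mm9, and their log2 fold changes of -0.17, -0.31, -1.19 and -0.38 were all below 0, as they were in each of the 18 other settings, with 0 of 4 called (limma; 1 of 4 at an unadjusted p under 0.05, Apoa4). Apoe and Apoc1 lie within 6.96 kb of chromosome 7, beside Apoc4 and Apoc2. Of these neighbours, Apoc4 had a log2 fold change of -0.35 (limma, adjusted p = 0.400) without overlap of the groups, and Apoc2, the cofactor that Lpl needs, 0.14 (adjusted p = 0.754) with overlap.

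No mouse was at one end for every gene. After quantile normalization, WT 2 was the highest WT mouse for 6 of the 10 genes and level with WT 1 for Apoa2. WT 3 was the lowest WT mouse for 5. Among SHIVA mice, SHIVA 4 was the highest for 5 and SHIVA 2 the lowest for 4. SHIVA 2 had the lowest Apob, Apoa1, Apoa4 and Apoc3 of its group and the highest Apoa5 and Lpl.

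RefSeq promoter sequences (GRCm38.p6, 250 bases before the start site) were at hand for 7 of the 10 genes, Apoa1, Apoa2, Apoa4, Apoa5, Apob, Apoe and Mttp. The letters ACAAT, the core that SOX factors recognise, searched on both strands, were found for Apoa5 and Apoe, 2 of 7 genes, and in 27.7% of all 32851 promoters of the table. A perfect direct repeat of AGGTCA with 1 base between was found for 0 of the 7 genes and in 0.0335% of all promoters. PPARα and its partner RXR bind degenerate forms of this repeat, which were not searched. The perfect form is so rare that its absence here says nothing about whether these genes hold such sites. Neither Apoa5 nor Apoe was called, and no promoter of Lpl was searched.

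Around these 10 genes, 85 other genes of lipoprotein metabolism were read in 6 lists, of which 82 were tested. Of these, 0 were called higher and 1 was called lower in SHIVA livers, beside 0.185% and 0.19% of all genes tested. An unadjusted p under 0.05 (limma) was found for 14 of 82, or 17.1%, beside 13.2% of all genes tested. Their median log2 fold change was -0.05, and 35 had a value above 0. The groups did not overlap for 12 of the 82, or 14.6%, beside 12.2% of all genes tested, with 4 higher and 8 lower. Both shares are near those of all genes.

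In the list on lipolysis in the vessel, which holds the partners of Lpl, 9 of 10 genes were tested and 0 were called. The median was -0.20. Of the 9, 1 had an unadjusted p under 0.05 (limma), beside 13.2% of all genes tested. Angptl4, a secreted inhibitor of Lpl, had log2 signals of 14.11, 14.30 and 13.75 in WT and 13.17, 13.56, 13.41 and 13.57 in SHIVA livers. All SHIVA livers were below all WT livers, opposite to Lpl. The log2 fold change of Angptl4 was -0.62 (standard error 0.18; limma, adjusted p = 0.218). Angptl8, a further Lpl inhibitor induced by feeding, had a value of 0.51 with WT 3 the highest of all mice (adjusted p = 0.770). Other genes of this list, which were picked out after their values were seen, were Gpihbp1, which carries Lpl to the capillary surface, at -0.10 (adjusted p = 0.860), and Lmf1, which Lpl needs to fold, at 0.12 (0.857).

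In the list on receptors and uptake, 12 of 12 genes were tested and 0 were called, with a median of 0.22. Of the 12, 2 had an unadjusted p under 0.05 (limma), beside 13.2% of all genes tested. The groups did not overlap for 2 of the 12, or 16.7%, beside 12.2% of all genes tested. Both were higher in SHIVA livers, as were 6.35% of all genes tested. Cd36, a fatty acid transporter, had log2 signals of 7.94, 7.90 and 8.13 in WT and 8.59, 9.13, 8.54 and 8.70 in SHIVA livers, with a fitted difference of 0.75 (standard error 0.18; limma, adjusted p = 0.145). Vldlr, the VLDL receptor, had log2 signals of 6.63, 7.16 and 7.28 in WT and 7.95, 8.13, 7.62 and 8.10 in SHIVA livers, with a fitted difference of 0.92 (standard error 0.21; limma, adjusted p = 0.131) and of 1.21 at its second probe, whose groups overlapped. The SHIVA values of Cd36 and of the first Vldlr probe were all above the WT values.

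In the list on particle assembly and export, in which Apob and Mttp work, 20 of 20 genes were tested and 0 were called. The median was -0.05. Of the 20, 3 had an unadjusted p under 0.05 (limma), or 15%, beside 13.2% of all genes tested. Fitm1 and Fitm2, membrane proteins of the endoplasmic reticulum that help lipid droplets form, had log2 fold changes of -1.34 (adjusted p = 0.185) and -0.80 (0.253). Fitm1 did not overlap between the groups, and Fitm2 did. Sar1b, a coat protein of the vesicles that carry lipoproteins out of the endoplasmic reticulum, had -0.71 (adjusted p = 0.235) without overlap and was picked out after its value was seen. Among 12 of 13 other apolipoproteins tested, 0 were called, with a median of 0.11. Of the 12, 1, Apof, had an unadjusted p under 0.05 (limma), beside 13.2% of all genes tested. Apof had 0.38 (limma, adjusted p = 0.348) and Apod, a carrier of small lipids, -0.43 (0.475), both with overlap.

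In the list on HDL formation and remodelling, in which Apoa1 and Apoa2 work, 10 of 10 genes were tested and 0 were called. The median was 0.18. Of the 10, 4 had an unadjusted p under 0.05 (limma), or 40%, beside 13.2% of all genes tested. Without overlap of the groups there were 2 higher and 2 lower in SHIVA livers, or 40%, beside 12.2% of all genes tested. Pltp, which moves phospholipid from triglyceride-rich particles to HDL, had log2 signals of 9.11, 9.85 and 9.65 in WT and 8.81, 7.73, 8.95 and 8.37 in SHIVA livers. The groups did not overlap, and SHIVA 2 was the lowest. The fitted log2 difference of Pltp was -1.07 (standard error 0.31; limma, adjusted p = 0.217). The acute phase apolipoproteins Saa1 and Saa2, which replace Apoa1 on HDL in inflammation, had fitted values of 2.08 and 2.29 (adjusted p = 0.443 and 0.449), set apart by SHIVA 2 at 17.73 and 17.33, with the other SHIVA mice at 12.83 to 13.97 and 11.98 to 12.81. The exporters of cholesterol to HDL, Abca1 and Abcg1, had 0.55 (0.281) and 0.69 (0.229) and the HDL enzyme Pon1 -0.37 (0.356), without overlap; these 3 were picked out after their values were seen.

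In the list of transcriptional regulators, 19 of 20 genes were tested, 0 were called higher and 1 lower, with a median of -0.12. Of the 19, 3 had an unadjusted p under 0.05 (limma), or 15.8%, beside 13.2% of all genes tested. The called gene was Nr1d1, a nuclear receptor of the circadian clock that also represses lipid genes. It had log2 signals of 10.63, 10.23 and 10.57 in WT and 9.58, 8.97, 9.10 and 9.25 in SHIVA livers, clearly apart, with a log2 fold change of -1.25 (standard error 0.19; limma, adjusted p = 0.0437). Over the 6 lists, 0 genes were called without WT 1, without WT 2 or without any single SHIVA mouse, and 2 without WT 3. Ppara, which encodes PPARα, had log2 signals of 12.19, 12.61 and 12.33 in WT and 11.66, 11.74, 11.64 and 11.78 in SHIVA livers. Its groups did not overlap, and its log2 fold change was -0.67 (standard error 0.15; limma, adjusted p = 0.131); its 2 further probes gave -0.50, with overlap of the groups, and -0.63, without.

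**Figure D5:**
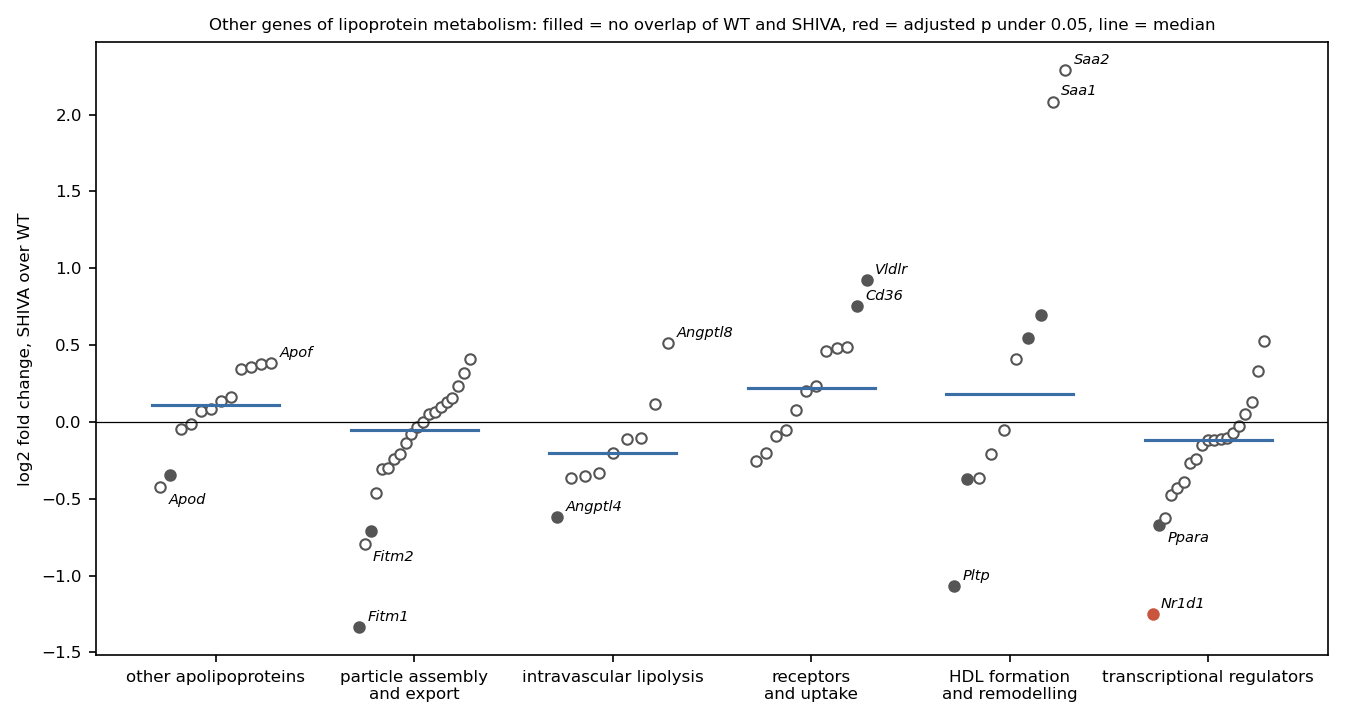
Log2 fold change of SHIVA over WT (vertical axis) for the 82 tested genes of 6 lists around the lipoprotein genes (horizontal axis, sorted within each list); filled points did not overlap between the genotypes, red has an adjusted p under 0.05, blue lines are list medians, and the named genes are those chosen by the rule given under the methods. Nr1d1 at -1.25 is the called gene; Cd36 and Vldlr lie at the upper and Angptl4, Pltp, Fitm1 and Ppara at the lower end of their lists.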

How the data were processed

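Liver RNA of 3 WT and 4 SHIVA mice was labelled with Cy3 and hybridized to Agilent arrays in 1 colour, and no livers were pooled. Per the file headers, the authors deposited spot intensities from Feature Extraction 10.5.1.1, with spatial detrending and no normalization between arrays. The authors also deposited a table of log2 values, quantile normalized in R, which was used as an alternative. Of 62976 spots per array 3671 were controls. Spots marked as outliers (120 to 163 per array, 2 of them Apoe spots on WT 2) were left out, spots of a probe were averaged, and processed intensities were quantile normalized and put on the log2 scale (R 4.3.3, limma 3.58.1). The probe with the highest mean stood for a gene. Of 55681 probes, 26413 were named through their accession with GRCm38.p6. Probes well above background on at least 3 arrays were compared by limma (lmFit and eBayes), fitted on all 20002 genes with genotype as the single term, at an adjusted p under 0.05. Intervals are limma's 95% intervals. The labels do not say whether mice shared cages or litters. The steps were tested on simulated data. Alternatives were the mean signal, normexp (offset 50), scaling to the 75th percentile, the authors' table, other filters and probe choices, array weights, a replicate block, the methods' t-test and leaving out each mouse.

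The genes and lists were chosen with earlier results of these data known. All 10 genes were named with every probe; from each pathway list, called genes, the 2 with the largest absolute log2 fold change and the one with the smallest unadjusted p were named, and others are marked as picked after their values were seen.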

Additional observations from a re-analysis of the deposited data

Results flagged for a closer look

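In 28 groups of 4 SHIVA values, those of the named probes, single values far from the rest were sought, where chance gives about 1 in 20 groups, or 1.4 of 28. There were 3 such values, each from SHIVA 2. The log2 signal of the Apob probe near the 3′ end was 11.90 in SHIVA 2 and 12.94 to 13.12 in the other SHIVA mice. Saa2 was 17.33 in SHIVA 2 and 11.98 to 12.81 in the others. Fitm2 was 10.80 in SHIVA 2 and 10.34 to 10.38 in the others. The cause was not tested.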

How the results depend on the processing

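The count of all genes called, 75, became 138 with the mean signal, 142 with the authors' table, 385 with array weights, 13 without a filter on dim probes, 34 with the replicate block and 0 with the methods' t-test (2282 at an unadjusted p under 0.05), and lay between 3 and 434 when 1 mouse was dropped. The count of the 10 genes called, 1, became 0 without a filter, with the replicate block and with the methods' t-test (3 at an unadjusted p under 0.05), and lay between 0 and 1 with single mice left out (0 without WT 1, WT 2, SHIVA 1 or SHIVA 3). The count of pathway genes called, 1, became 2 with array weights and 0 for probes tested singly, without a filter, with the replicate block, in replicates 1 to 3 of both genotypes without the block and with the methods' t-test (14 at an unadjusted p under 0.05), and lay between 0 and 2 as each mouse was dropped in turn. Without a filter more genes were tested, 36492; for the other settings the cause was not tested. The log2 fold changes of 8 of the 10 genes kept their sign in all 18 other settings. The log2 fold change of Apoa2 was 0.0058 with the replicate block and in the same mice without it, and -0.034 to 0.0037 with single mice left out; that of Apoe was -0.021 to 0.00083 with single mice left out.

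WT and SHIVA mice share replicate numbers, but same-numbered mice deviated from their group means with correlations of -0.05, 0.01 and 0.24, so that the numbers were not taken to pair mice. With the number as a replicate block, which leaves out SHIVA 4, Lpl had a log2 fold change of 2.23 (limma, adjusted p = 0.0627), and 34 genes were called, against 53 in the same mice without the block, a setting added after the data were seen. Not every mouse correlated best with its own number.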
